A study of Mus musculus with 12 samples.

Results

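Pf4, Ppbp, Vwf, Itga2b, Gp1ba, Gp1bb, Gp5, Gp9 and Gp6 are genes of megakaryocytes, the marrow cells that shed platelets, and of the platelets themselves. They were chosen by name, from the rows of the deposited expression table, and make up 9 of the 34745 genes listed there. RNA of the total marrow cells of the femur was sequenced of 12 male mice of the outbred ICR strain, 4 groups of 3. Normal mice received saline by mouth and by injection. Model mice were injected intraperitoneally with cyclophosphamide, which alkylates DNA and is toxic to dividing cells, at 80 mg/kg/day on days 5 to 7, with saline by mouth. QJSB mice had this cyclophosphamide too and took the Qi-Jing-Sheng-Bai granule by mouth at 3 g/kg/day for 1 week. Leucogen mice likewise had cyclophosphamide and took leucogen, a drug used to raise leucocyte counts, at 20 mg/kg/day for 1 week. All 3 groups other than normal thus carried cyclophosphamide, and no group received a drug alone, so a drug can be compared only on top of cyclophosphamide. The age of the mice is not given in the sources used here. Each library is 1 mouse, and a mouse is named below by its group and number.

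Megakaryocytes arise in the marrow, grow large with many copies of the genome, and fill their granules with proteins that platelets later release. On the surface of the platelet, the products of Gp1ba, Gp1bb, Gp9 and Gp5 form the GPIb-IX-V complex, which catches von Willebrand factor at a wounded vessel wall, while glycoprotein VI binds collagen and the integrin that contains the Itga2b product binds fibrinogen. The transcription factors Gata1 and Fli1, of the GATA and ETS families, are known to act on many genes of this lineage. In RNA of whole marrow, fewer megakaryocytes and less RNA per megakaryocyte cannot be told apart.

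The genes lie on 5 chromosomes of GRCm38, by the coordinates of the deposited table. Pf4 (ENSMUSG00000029373, chr5:90772435-90773383) and Ppbp (ENSMUSG00000029372, chr5:90768518-90770063), which encode the granule chemokines platelet factor 4 and pro-platelet basic protein, are neighbours on the plus strand of chromosome 5. Vwf (ENSMUSG00000001930, chr6:125546774-125686679) and Gp9 (ENSMUSG00000030054, chr6:87778072-87779768) are on the plus strand of chromosome 6. Itga2b (ENSMUSG00000034664, chr11:102453297-102470122, minus strand) and Gp1ba (ENSMUSG00000050675, chr11:70639122-70642036, plus strand) are on chromosome 11. Gp1bb (ENSMUSG00000050761, chr16:18620319-18622403) and Gp5 (ENSMUSG00000047953, chr16:30307686-30310779) are on the minus strand of chromosome 16, and Gp6 (ENSMUSG00000078810, chr7:4363965-4397744) is on the minus strand of chromosome 7. Of the 2087 exon bases of Gp1bb in the GENCODE annotation, 1902 (91.1%) are also exon bases of Sept5 on the same strand. Reads of both genes cannot be told apart there, so every value of Gp1bb below is uncertain.

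RefSeq's table for GRCm38.p6 holds the promoters of 8 of the 9 genes, each as 250 bases before to 50 bases after the start. These were searched on both strands for letters that GATA factors are known to bind (GATAA or GATAG after an A or a T) and for letters of ETS factors (AGGAAG or CGGAAG). The GATA letters were found in 5 of the 8 promoters, against 29.8% of all 32851 promoters of the table. The ETS letters were in 6 of the 8, against 46.5% of all. Both were in 4 of the 8, those of Pf4, Gp1ba, Gp1bb and Gp5, against 12.6% of all. A match of letters is a description and shows no binding. The sequences that follow are of the chemokine neighbours Pf4 and Ppbp, of 2 receptor subunits that followed the shared pattern described next, Gp1ba and Gp5, and of Gp9, which departed from it, with every match in capitals. Among those not printed, Itga2b, closest of the members to that pattern, had 0 GATA and 2 ETS matches. Gp1bb, the farthest from it, had 1 GATA and 2 ETS matches. A link between the letters and the pattern was not tested.
Pf4 promoter, chr5:90772185-90772484, + strand: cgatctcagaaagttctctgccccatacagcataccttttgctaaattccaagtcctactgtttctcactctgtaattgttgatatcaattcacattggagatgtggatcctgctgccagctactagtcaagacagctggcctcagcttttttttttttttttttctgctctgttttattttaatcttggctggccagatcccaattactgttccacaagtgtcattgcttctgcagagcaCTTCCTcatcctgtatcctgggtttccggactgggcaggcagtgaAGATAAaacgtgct
Ppbp promoter, chr5:90768268-90768567, + strand: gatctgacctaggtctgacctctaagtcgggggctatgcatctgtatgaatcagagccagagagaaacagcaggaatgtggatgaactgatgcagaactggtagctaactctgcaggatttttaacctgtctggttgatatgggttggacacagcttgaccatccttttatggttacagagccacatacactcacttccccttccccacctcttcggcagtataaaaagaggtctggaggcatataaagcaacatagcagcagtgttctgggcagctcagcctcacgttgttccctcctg
Gp1ba promoter, chr11:70638872-70639171, + strand: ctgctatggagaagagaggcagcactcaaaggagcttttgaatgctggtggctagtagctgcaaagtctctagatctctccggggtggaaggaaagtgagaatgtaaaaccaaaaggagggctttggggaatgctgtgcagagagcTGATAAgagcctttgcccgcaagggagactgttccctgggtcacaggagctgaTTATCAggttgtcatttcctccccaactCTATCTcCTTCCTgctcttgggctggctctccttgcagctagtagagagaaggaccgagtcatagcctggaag
Gp5 promoter, chr16:30310732-30311031, - strand: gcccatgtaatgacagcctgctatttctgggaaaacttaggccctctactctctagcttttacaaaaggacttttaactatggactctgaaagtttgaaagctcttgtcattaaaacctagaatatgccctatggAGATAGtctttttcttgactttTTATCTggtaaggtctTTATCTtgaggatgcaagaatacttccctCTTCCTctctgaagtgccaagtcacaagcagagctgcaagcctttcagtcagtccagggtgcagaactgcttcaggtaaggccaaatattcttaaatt
Gp9 promoter, chr6:87777820-87778119, + strand: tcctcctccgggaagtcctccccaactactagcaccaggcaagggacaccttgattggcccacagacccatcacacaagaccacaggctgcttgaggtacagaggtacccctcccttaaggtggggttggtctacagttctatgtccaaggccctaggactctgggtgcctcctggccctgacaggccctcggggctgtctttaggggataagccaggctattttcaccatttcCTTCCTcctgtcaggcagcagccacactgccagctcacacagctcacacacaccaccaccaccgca

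Library totals ran from 11172547 to 18545198 read counts, with a median of 14821308. Counts were scaled by TMM factors and are given as CPM, counts brought to a common total, which compare a gene between mice but not 1 gene with another. Over all 12 mice the genes had between 14 counts (Gp1bb in normal 2) and 3932 counts (Ppbp in model 1), and all 9 passed the filter on low counts in every comparison. Levels of different genes are compared as the deposited FPKM, which divides by transcript length. On that scale Ppbp stood first in each group, at 127 ± 47.2 FPKM (SD, n = 3) in normal, 136 ± 89.0 in model, 87.9 ± 21.4 in QJSB and 90.9 ± 54.8 in leucogen, and its range overlapped that of no other member within a group. Pf4 was second in each group, at 16.4 ± 6.85, 19.5 ± 10.6, 16.5 ± 2.93 and 7.69 ± 4.16 FPKM in the same order. In normal and QJSB its range was also apart from that of the gene after it. Gp9 and Itga2b held the next places, with group means of 4.38 to 9.72 FPKM, and Gp1bb, Gp1ba and Gp6 held the last, with means of 1.11 to 3.07. Neighbours from the third place on overlapped between mice in every group, apart from Itga2b over Gp9 and Vwf over Gp1ba in QJSB.

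The genes spread widely between the mice of the normal, model and leucogen groups, mostly with the same mouse high, while the QJSB mice lay closer together. The highest over the lowest group mean was 1.48-fold (Itga2b, Ppbp) to 2.34-fold (Gp1bb), whereas the highest over the lowest of the 12 mice was 2.94-fold (Itga2b) to 13.5-fold (Gp1bb). The values of each gene in each mouse follow, by role.

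The granule proteins come first. Pf4 stood at 18.8, 15.98 and 33.3 CPM in normal 1, 2 and 3, at 38.3, 17.7 and 17.1 in model, at 23.1, 19.1 and 24.8 in QJSB and at 16.2, 11.1 and 5.18 in leucogen. Ppbp stood at 127, 96.7 and 196 CPM in normal, 227, 109.9 and 68.5 in model, 112, 85.3 and 86.0 in QJSB and 166, 83.0 and 56.0 in leucogen. Vwf, whose product is stored in the granules and is also made by endothelial cells, stood at 61.9, 35.3 and 112 CPM in normal, 133, 40.04 and 71.8 in model, 95.5, 92.3 and 96.7 in QJSB and 82.2, 34.4 and 28.5 in leucogen. For all 3 genes, normal 3, model 1 and leucogen 1 were the highest of their group. The model values spanned those of every QJSB mouse, and only Pf4 had all its leucogen mice below all the model mice.

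The integrin and the von Willebrand factor receptor come next. Itga2b, the alpha subunit of the fibrinogen receptor and an early marker of the lineage, stood at 51.6, 40.5 and 101 CPM in normal, 107, 38.5 and 54.7 in model, 76.9, 76.9 and 83.2 in QJSB and 82.4, 41.7 and 36.6 in leucogen. Gp1ba, the subunit that touches von Willebrand factor, stood at 7.46, 5.01 and 15.9 CPM in normal, 25.6, 5.95 and 10.50 in model, 14.8, 8.85 and 14.1 in QJSB and 16.04, 4.64 and 5.56 in leucogen. Gp5, the outer subunit of the complex, stood at 8.84, 4.32 and 13.5 CPM in normal, 20.1, 5.95 and 11.5 in model, 14.2, 10.8 and 12.8 in QJSB and 11.1, 6.38 and 3.07 in leucogen. These 3 genes kept the same high mice as the granule genes, and model overlapped normal and QJSB for each of them.

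The other 3 receptor genes follow. Gp9, the small subunit of the complex, stood at 8.04, 7.68 and 9.72 CPM in normal, 10.4, 3.12 and 2.71 in model, 4.62, 5.496 and 5.60 in QJSB and 4.60, 3.84 and 3.65 in leucogen. Every QJSB and leucogen mouse lay below every normal mouse, and so did model 2 and model 3, while model 1 was above them all. Gp6, the collagen receptor, stood at 15.0, 12.8 and 30.2 CPM in normal, 25.2, 8.72 and 9.34 in model, 12.5, 10.9 and 11.99 in QJSB and 20.6, 7.97 and 9.59 in leucogen, so that all QJSB mice were below all normal mice. Gp1bb, the beta subunit that joins Gp1ba, stood at 3.33, 0.960 and 4.14 CPM in normal, 5.37, 1.35 and 12.98 in model, 5.15, 3.82 and 4.20 in QJSB and 3.65, 3.33 and 1.73 in leucogen, with its highest value in model 3 and not in model 1. The counts of Sept5, with which it shares exon bases, ran from 593 to 673 in normal, 322 to 554 in model, 617 to 1929 in QJSB and 1214 to 1845 in leucogen. How reads of the shared bases were assigned is not known, and their part in the values of Gp1bb was not tested.

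**Figure D1:**
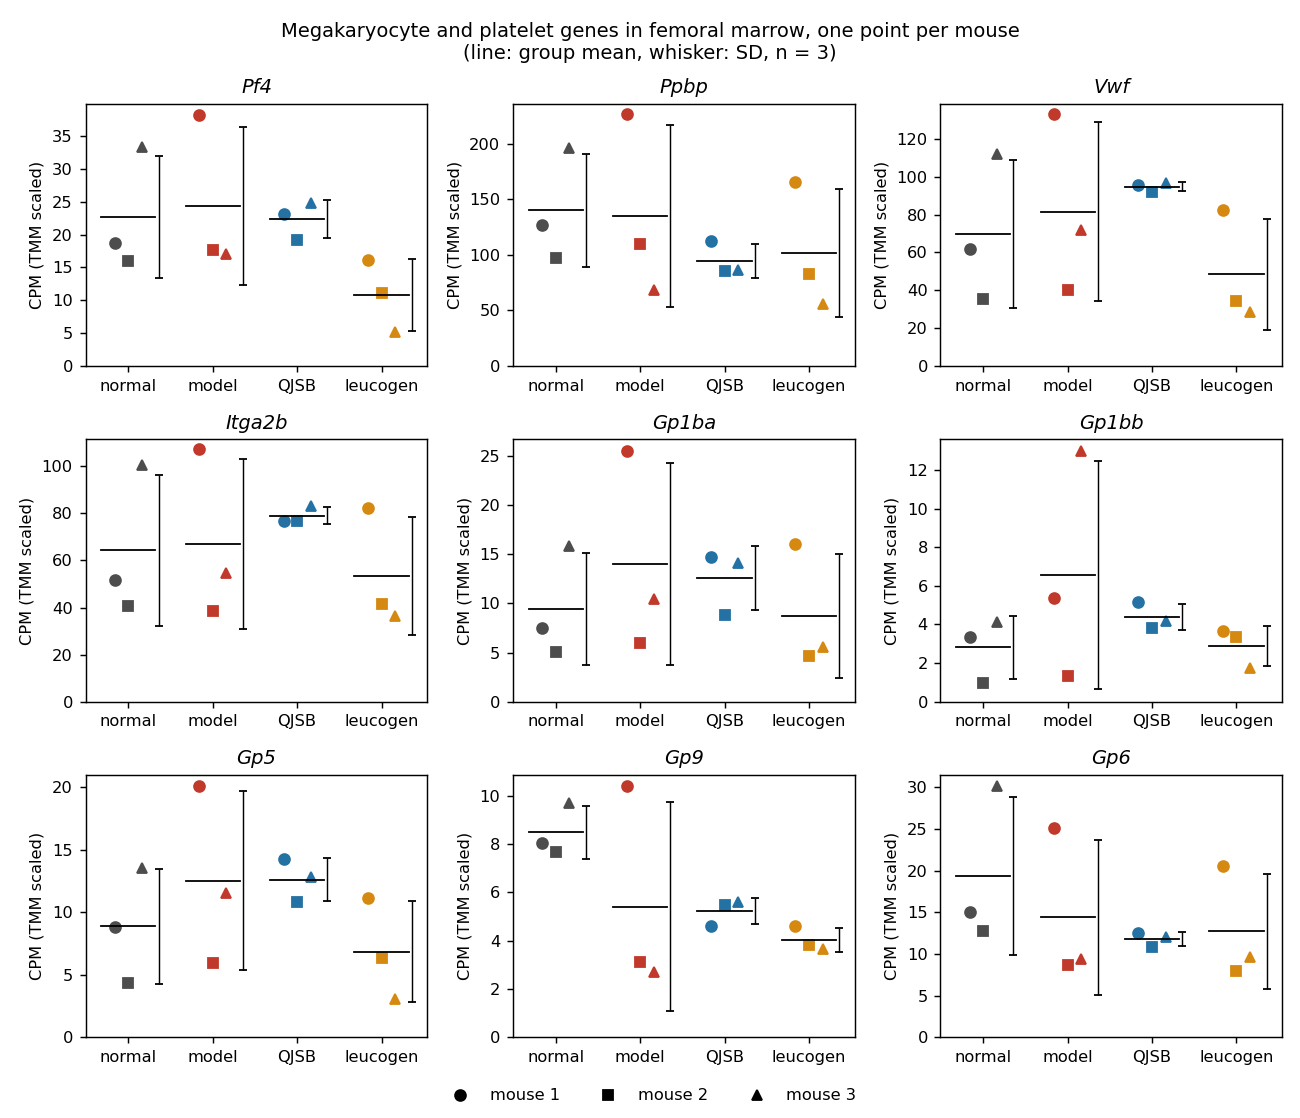
CPM (vertical axis, linear from 0) of each of the 9 genes in each mouse, by group, with circle, square and triangle for mouse 1, 2 and 3, a line at the group mean and a whisker for the SD (n = 3). Normal 3 and leucogen 1 are highest of their group in 9 of 9 panels, model 1 in 8 of 9, and the QJSB mice lie close together.

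Normal 3 was the highest and normal 2 the lowest normal mouse for 9 of 9 genes. Model 1 was the highest model mouse for 8 of 9, and leucogen 1 the highest leucogen mouse for 9 of 9, with leucogen 3 the lowest for 7. The median over the genes of the highest over the lowest mouse was 2.49-fold in normal, 3.32-fold in model and 2.89-fold in leucogen, against 1.30-fold in QJSB. The coefficient of variation between mice had a median of 49.9% in normal, 60.8% in model, 53.9% in leucogen and 13.03% in QJSB, where its highest value was 25.8% (Gp1ba). No test of the difference in spread was run, and each spread rests on 3 mice. Neither the spread nor the order of the mice was set beside that of all genes. Whether they are particular to these genes is therefore not known. When each gene was centred on its mean log2 CPM over the 12 mice, the mean over the genes was 1.00 in model 1, 0.75 in normal 3 and -0.99 in leucogen 3, while the QJSB mice lay between 0.065 and 0.31.

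The comparison of model with normal asked what cyclophosphamide did to these genes. None of the 9 genes was called, which means an adjusted p under 0.05 (edgeR's quasi-likelihood test, Benjamini-Hochberg adjustment over all genes tested) with a fold change over 1.5 in either direction. This count of 0 of 9 stands beside 35.1% of the 14752 genes tested. It was also 0 at an unadjusted P under 0.05 with that fold, where 38.4% of all genes passed, and 0 by DESeq2. No gene had groups that did not overlap, against 55.5% of all genes tested. The log2 fold changes ran from -0.64 for Gp9 (SE 0.49, 95% interval -1.78 to 0.51, adjusted p = 0.333 by edgeR) to 1.23 for Gp1bb (SE 0.83, interval -0.75 to 3.22, adjusted p = 0.276), and their median was 0.11, against 0.024 over all genes tested. Without model 3, its highest mouse, Gp1bb was at 0.28. For Pf4 the log2 fold change was 0.11 with an interval of -0.81 to 1.03, and for Ppbp -0.046 with -1.16 to 1.07. A 2-fold higher level in model lay within both intervals, and a 2-fold lower level within that of Ppbp. Without model 1, the highest of its group for 8 genes, Gp9 was called lower in model, with a log2 fold change of -1.52 (adjusted p = 0.00213 by edgeR), and so was Gp6, at -1.08 (adjusted p = 0.0488). Leaving out the mouse highest in these same genes lowers the group mean and narrows its range by construction. Such calls only show how far a result rests on that mouse.

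Between QJSB and model, the comparison that asks what the granule added, 0 of 9 genes were called by edgeR, at the unadjusted P or by DESeq2. Mice were not paired in these fits. Over all 14486 genes tested, 0% were called, and 3.08% at the unadjusted P with the same fold. None of the 9 genes had groups apart, against 9.8% of all genes. The log2 fold changes ran from -0.60 for Gp1bb (SE 0.65) and -0.53 for Ppbp (SE 0.39, interval -1.44 to 0.38) to 0.20 for Vwf (SE 0.37) and 0.22 for Itga2b (SE 0.34, interval -0.55 to 0.99), with adjusted p from 0.784 to 0.998 by edgeR. Pf4 had a log2 fold change of -0.14 (interval -0.87 to 0.59). The median over the genes was -0.14, against -0.016 over all genes tested. The QJSB values fell inside the wide range of the model mice.

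Between leucogen and model, which share the model mice with the comparison before, all 9 log2 fold changes were below 0, with a median of -0.67 against -0.053 over all genes tested, but 0 of 9 were called by edgeR, where 23.1% of the 14184 genes tested were. Pf4 had the log2 fold change -1.16 (SE 0.47, fold 0.447, adjusted p = 0.107 by edgeR), and its groups alone among the 9 did not overlap, against 46% of all genes tested. It was the 1 gene past the unadjusted P with the fold, which 29.6% of all genes passed, and DESeq2 called it (adjusted p = 0.0170). Without model 1, the mouse with the highest Pf4, the log2 fold change of Pf4 was -0.66 (adjusted p = 0.286 by edgeR). The others ran from -0.18 for Gp6 (SE 0.52) to -1.16 for Gp1bb (SE 0.73), with adjusted p from 0.270 to 0.824 by edgeR. Gp1bb was at -0.17 without model 3, and was called at -1.61 without model 2 (adjusted p = 0.0367 by edgeR). These were its highest and lowest model mice, so the direction of both shifts was fixed by the choice.

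Each drug group was also set against the same normal mice, which asks how far the genes stood from their level in untreated marrow. In QJSB, Gp9 was the 1 gene called of 9, where 37.9% of the 14817 genes tested were, and the 1 gene past the unadjusted P, where 41.6% were. It was lower, with a log2 fold change of -0.68 (SE 0.20, fold 0.623, adjusted p = 0.0249 by edgeR). That call was lost without any one of the normal mice (adjusted p = 0.0568 to 0.0985), with the replicate number as a block (0.0587) and with all 12 libraries in 1 fit (0.180), and held by DESeq2 (0.0183). Gp9 and Gp6 had groups apart, 2 of 9 against 58% of all genes tested. Gp6 had the log2 fold change -0.70 (SE 0.32, adjusted p = 0.110 by edgeR) and Ppbp -0.55 (SE 0.26, adjusted p = 0.115). The values of Vwf, Itga2b, Gp1ba, Gp5 and Gp1bb lay between 0.31 and 0.66, with adjusted p from 0.285 to 0.436. Without normal 3, the highest normal mouse, Vwf and Itga2b were called higher in QJSB, with log2 fold changes of 0.97 (adjusted p = 0.0244 by edgeR) and 0.79 (adjusted p = 0.0118). Without normal 2, the lowest, Ppbp was called lower, at -0.76 (adjusted p = 0.0467). Normal 3 and normal 2 are the extremes in these same genes, so the direction of each shift was fixed by the choice of mouse.

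In leucogen against normal, Gp9 was again the 1 gene called, against 37.7% of the 14637 genes tested (39.4% at the unadjusted P), and the 1 gene whose groups did not overlap, against 61.8%. It was lower, with a log2 fold change of -1.05 (SE 0.20, fold 0.484, adjusted p = 0.00146 by edgeR). The call held by DESeq2 and without any one of the 6 mice (adjusted p = 0.00222 to 0.00794 by edgeR), but not with all 12 libraries in 1 fit (adjusted p = 0.0577). Pf4 had the log2 fold change -1.03 (SE 0.49, adjusted p = 0.136 by edgeR), and DESeq2 called it (adjusted p = 0.0104). The other 7 lay between -0.58 (Gp6) and 0.083 (Gp1bb).

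The drugs were compared with each other on the same days and cyclophosphamide, with no dose in common. Of the 9 genes, 7 were at higher mean CPM in QJSB than in leucogen, with a median log2 fold change of 0.54 against 0.033 over all genes tested, but 0 of 9 were called by edgeR, against 24.6% of the 14266 tested. Pf4 had the log2 fold change 1.02 (SE 0.36, fold 2.03, adjusted p = 0.0632 by edgeR) and Vwf 0.95 (SE 0.38, adjusted p = 0.0972). Both passed the unadjusted P with the fold, as 30.6% of all genes did, and DESeq2 called both (adjusted p = 0.0173 and 0.0229). Pf4, Vwf, Gp1bb and Gp9 had groups apart, 4 of 9 against 48.8% of all genes. Ppbp and Gp6 lay close to 0, at -0.13 (SE 0.37) and -0.13 (SE 0.34). Without leucogen 1, the highest leucogen mouse, 5 genes were called higher in QJSB, Pf4, Vwf, Itga2b, Gp1ba and Gp5, with log2 fold changes from 0.99 (Itga2b) to 1.57 (Vwf) and adjusted p from 0.0210 to 0.0407 by edgeR. Leucogen 1 was highest for all 9 genes, so its removal lowers the leucogen mean by construction. These calls only show how far the result rests on that mouse.

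**Figure D2:**
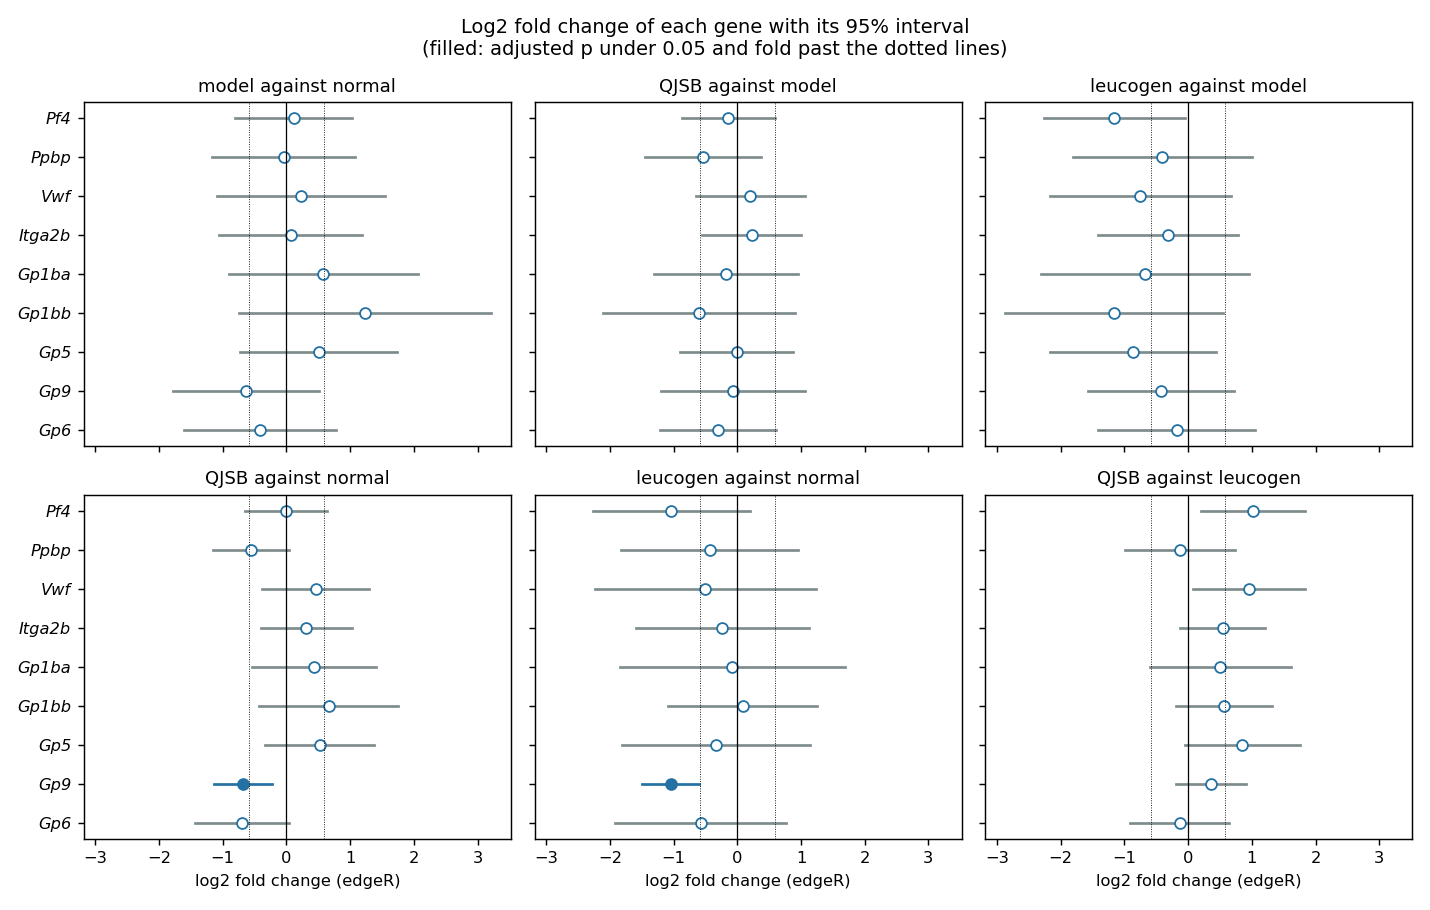
Log2 fold change (horizontal axis) of each of the 9 genes in the 6 comparisons, the first group over the second, as points with 95% intervals from edgeR. A filled point marks a called gene and dotted lines mark the fold of 1.5 in either direction. Gp9 against normal in QJSB (-0.68) and in leucogen (-1.05) are the filled points, and most other intervals cross 0.

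The subunits of the receptor complex can be set side by side. Against normal, Gp9 had log2 fold changes of -0.68 in QJSB and -1.05 in leucogen, the calls of which were both lost with all 12 libraries in 1 fit, and in QJSB also with the block and without any one normal mouse. Gp1ba, Gp5 and Gp1bb, whose products sit in the complex with it, had log2 fold changes of 0.43, 0.52 and 0.66 in QJSB and of -0.081, -0.34 and 0.083 in leucogen, none of them called. Gp9 varied little in normal, QJSB and leucogen, with coefficients of variation of 12.8%, 10.3% and 12.6%, and by 79.9% in model. The difference between Gp9 and the other subunits was not tested.

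The balance between genes within a library was also set out, since a ratio of counts from 1 mouse does not change with library size. The count of Ppbp over that of Pf4, both granule chemokines, was 6.77, 6.05 and 5.89 in normal, 5.92, 6.20 and 4.01 in model, 4.86, 4.45 and 3.46 in QJSB and 10.2, 7.48 and 10.8 in leucogen. Each leucogen mouse thus had more Ppbp per Pf4 than any mouse of the other groups, and each QJSB mouse had less than any normal mouse. The count of Vwf over that of Gp6 was 4.13, 2.77 and 3.72 in normal, 5.29, 4.59 and 7.68 in model, 7.64, 8.48 and 8.06 in QJSB and 4, 4.32 and 2.97 in leucogen, and here the QJSB mice stood above all normal and leucogen mice, while model 3 reached the lowest of them. These 2 ratios were picked from the 36 ratios that 9 genes give after all had been seen, and they were not tested. Ratios whose groups did not overlap were counted among the 36. They were 20 between QJSB and normal, 13 between model and normal and 13 between QJSB and leucogen. They were 7 between leucogen and normal, 7 between leucogen and model and 2 between QJSB and model. The share among ratios of other genes was not computed, so these counts have no background beside them. The ratios share their genes and are not independent of each other.

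**Figure D3:**
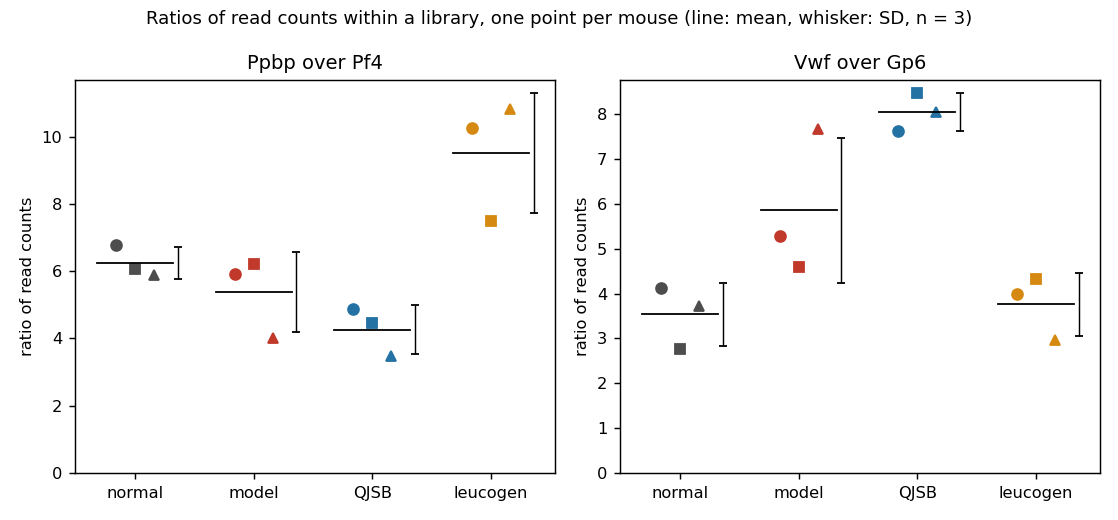
Ratio of read counts within a library (vertical axis, linear from 0) of Ppbp over Pf4 and of Vwf over Gp6, with a point per mouse (circle, square and triangle for mouse 1, 2 and 3), a line at the group mean and a whisker for the SD (n = 3). For Ppbp over Pf4 the leucogen mice lie at 7.48 to 10.8 and the others at 3.46 to 6.77, and for Vwf over Gp6 the QJSB mice lie at 7.64 to 8.48.

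Other genes of the lineage and of platelet function were counted over 7 fixed lists with 53 genes. Between model and normal, 7 rose and 7 fell of 53, beside 35.1% of all genes tested that were called in either direction. In the list of 8 megakaryocyte transcription factors, 5 fell in model, Gata1 by 3.98 and Gfi1b by 3.30 on the log2 scale, with Nfe2, needed for platelet release, at -0.84, and Tal1 and Zfpm1, named because they complete the count, at -3.70 and -3.97. All 5 are also factors of the erythroid lineage, and the list of erythroid genes fell with them in 12 of 12 genes, with a median log2 fold change of -5.26. Its part in their fall was not tested. Gata1 stood at 55.3 to 60.2 CPM in normal and at 1.77 to 6.001 in model. Fli1 had a log2 fold change of 0.49 in model against normal (adjusted p = 0.0296 by edgeR), under the fold needed for a call, and was called higher in QJSB (0.64) and in leucogen (0.91) against normal.

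Of the 15 adhesion and agonist receptors, 1 rose (Ptger3, a prostaglandin receptor, 0.98) and 1 fell (Cd9, -0.76) between model and normal. Itgb3, the partner of Itga2b, had a log2 fold change of 0.14, Itga2 -0.35, Clec1b -0.19, Treml1 0.23, P2ry12 -0.70, P2rx1 0.084, Tbxa2r -0.048, F2rl2 0.22 and F2rl3 1.35, none of them called. Of 12 genes of granules and their making, 2 rose, F13a1 and Clu, and Selp (1.05), Thbs1 (0.69), F5 (-0.095) and Mmrn1 (-0.64) were not called. Ptgs1, the cyclooxygenase of platelets, rose by 1.15 on the log2 scale, from 39.3 to 50.5 CPM in normal to 75.5 to 119 in model, and Alox12, the platelet lipoxygenase, had 0.019. Tubb1, the tubulin of platelets, had -0.30, while Tuba8, Bin2 and Fermt3 of the same cytoskeletal list of 10 rose. Among 5 partners of the collagen receptor, Syk fell by 1.11. F13a1, Clu, Tuba8, Bin2, Fermt3, Cd9, Ptger3 and Syk are named because they make up these small counts, and Cd9, Syk and F13a1 are also used by other marrow cells. Which cells the RNA of these or the other genes of the lists came from was not tested. The counts stand beside 35.1% of all genes tested that were called between model and normal.

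Of the same genes, 0 of 53 were called between QJSB and model (edgeR), with 1 past the unadjusted P, beside 0% and 3.08% of all genes tested. Between leucogen and model 6 of 52 rose, F5 (0.94), Runx1 (0.61) and Ptgs1 (0.73) among them, and 2 fell, beside 23.1% of all genes called in either direction. Against normal, 14 rose and 8 fell of 53 in QJSB, with Selp at 1.27, Thbs1 at 1.00 and Mmrn1 at -0.99 among the called, and 10 rose and 7 fell in leucogen, beside 37.9% and 37.7% of all genes. Between QJSB and leucogen 4 were higher in QJSB and 3 lower, among them Clec1b (-0.74) and Runx1 (-0.65), beside 24.6% of all genes. Itgb3, Itga2, Treml1, P2rx1, F2rl2, Tubb1 and Alox12 were called in none of the 6 comparisons.

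The genes whose log2 profile over the 12 mice lay closest to the mean profile of the 9 were sought among 11801 genes, by the root mean square difference of centred log2 CPM, for which all genes had a median of 0.68. F2rl2, a thrombin receptor subunit of platelets, was closest at 0.15, followed by Gnaz, a G protein subunit of platelets, at 0.19, and Mrvi1 at 0.20. Alox12, Gas2l1, Src, Treml1, Ank3, Kalrn and Slc6a4, the serotonin transporter, came next, up to 0.27. Of these 10 genes, 4 stood in the fixed lists. Among the members, Itga2b lay closest to the shared profile, at 0.17, and Vwf, Gp5, Gp1ba, Pf4, Gp6 and Ppbp lay between 0.23 and 0.38. Gp9 was at 0.52 and Gp1bb at 0.71, farther than the median gene. Each member is itself part of the mean profile, which shortens its distance, so members and other genes are not measured on equal terms.

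**Figure D4:**
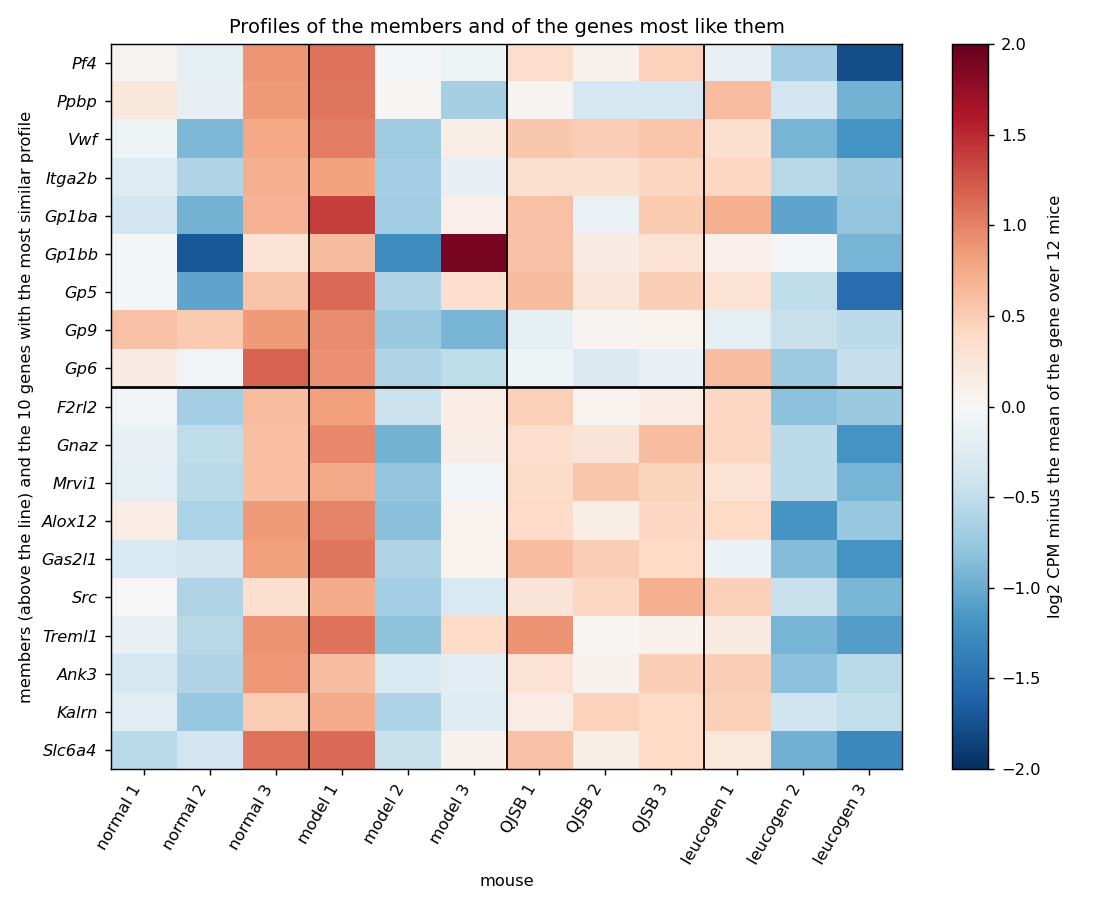
Log2 CPM minus the mean of the gene over 12 mice (colour, from -2 to 2) for the 9 genes, above the line, and the 10 genes with the most similar profile, below it, with the mice in columns by group. Normal 3 and model 1 are high (mean over the 9 genes 0.75 and 1.00), leucogen 3 is low (-0.99), and Gp1bb in model 3 stands out from its column.

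Markers of other marrow cells moved between the same mice, and their part in the values above was not tested. The 12 erythroid genes summed to 17555 to 21940.2 CPM in normal, 179 to 1859 in model, 237 to 643 in QJSB and 189 to 725 in leucogen, and 12 of 12 fell in model. Beside each count of marker genes that rose or fell in model, 35.1% of all genes tested were called in either direction. The 9 genes together summed to 219 to 516 CPM in normal, 231 to 592 in model, 313 to 359 in QJSB and 149.9 to 403 in leucogen. Of the endothelial list, which bears on Vwf, 6 of 11 genes rose in model, with sums of 43.4 to 45.8 CPM in normal, 75.7 to 99.8 in model, 90.6 to 101 in QJSB and 48.0 to 83.4 in leucogen. Model 1 and leucogen 1, high for the 9 genes, had the highest endothelial sums of their groups (99.8 and 83.4 CPM), as had normal 3 and QJSB 1. In normal mice that sum ran from 43.4 to 45.8 CPM, and Vwf varied 3.18-fold. Between QJSB and leucogen, the log2 fold change was above 0 for 11 of 11 endothelial genes tested, as for Vwf. The share of all genes with that sign was not computed. The median log2 fold change of the 11 was 0.73, against 0.033 over all genes tested. Of these endothelial genes, 1 was called, against 24.6% of all genes tested, and 5 had groups apart, against 48.8%. The part of endothelial cells in the values of Vwf was not tested. The 11 late neutrophil genes summed to 19468 to 23029 CPM in normal, 4806 to 19906 in model, 7335 to 37713 in QJSB and 49003 to 58675 in leucogen. Model 1 and leucogen 1, the highest for the 9 genes, had the lowest neutrophil sums of their groups, and so had normal 3 and QJSB 1.

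**Figure D5:**
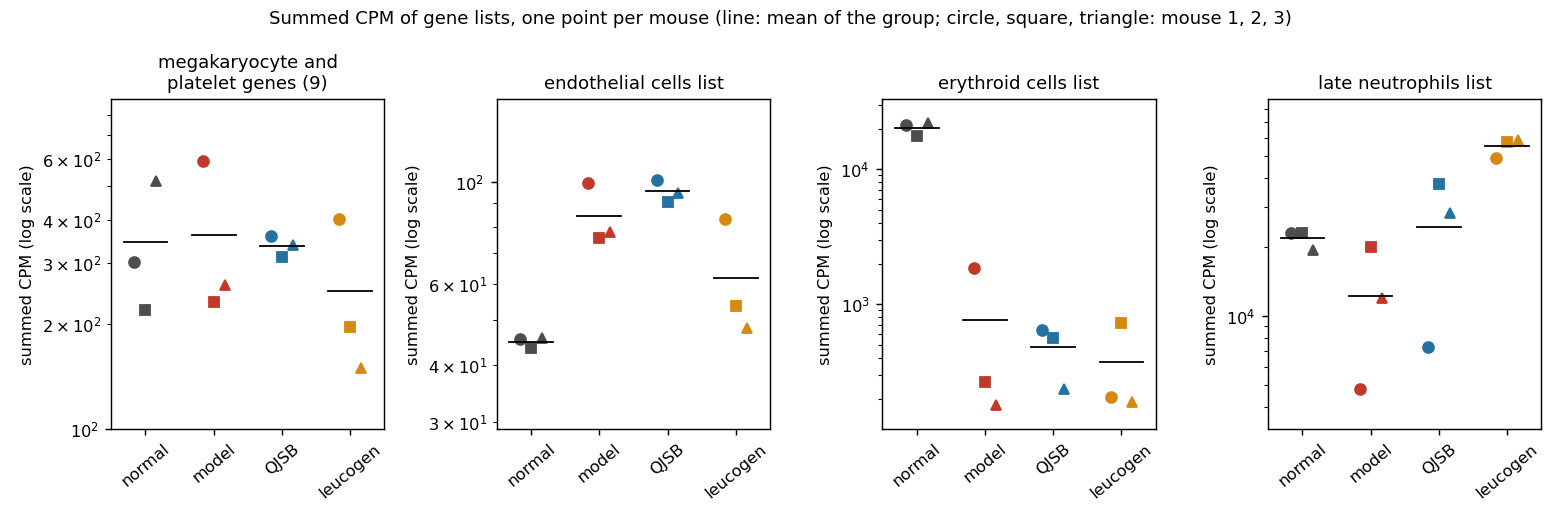
Summed CPM (vertical axes, log scale, a range of its own in each panel) of the 9 genes and of the endothelial, erythroid and late neutrophil lists in each mouse, with a line at the group mean and circle, square and triangle for mouse 1, 2 and 3. The erythroid sum is at least 17555 CPM in normal and at most 1859 in the other groups, while the sum of the 9 genes overlaps between all groups.

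The 6 basophil and mast cell genes summed to 121 to 182 CPM in normal, 24.8 to 68.6 in model, 24.7 to 83.1 in QJSB and 45.1 to 51.9 in leucogen, and 5 of 6 fell in model. The 8 stem and early progenitor genes summed to 214 to 236 CPM in normal, 184 to 289 in model, 164 to 320.3 in QJSB and 169 to 176 in leucogen, with 4 higher and 1 lower in model. Here too, 35.1% of all genes tested were called between model and normal. None of the marker genes was at 0 in all 3 mice of a group.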

How the data were processed

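The authors made strand-specific libraries of 12 mice, free of ribosomal RNA. Reads were cleaned with Seqtk, and Hisat2 placed them on GRCm38.p4 (mm10). The program that counted reads per gene, its strand setting and the annotation are not given in the sources used here. The deposited table holds the authors' read counts per gene, whole numbers without normalization, and their FPKM, which divide by transcript length and total fragments. The headings Blank, Model, Positive and Stilbene, each numbered, were taken for normal, model, leucogen and QJSB by meaning and elimination, and this was checked against mean normalized counts listed by the study: 300 of 300 genes per comparison lay within 1% as read, and at most 10 otherwise. In all, 0 value columns were left out.

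Counts were tested with edgeR 4.0.16 in R 4.3.3 (TMM, filterByExpr, robust glmQLFit, glmQLFTest), 2 groups at a time. SEs and 95% intervals come from the same fits. CPM used TMM factors over 12 libraries, with 15310 genes past the filter, and log2 CPM a prior count of 2. Depth covers counting error only. The alternatives used DESeq2 1.42.0 on unfiltered counts, its size factors or total counts for scaling, no filter, a joint fit of 12 libraries, a block for the replicate number, and limma-trend (limma 3.58.1) on log2(FPKM + 0.1) where the mean FPKM reached 0.1. Each library was also left out.

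Same-numbered libraries were checked for pairing by correlating their deviations from the group means. These correlations were 0.426, 0.123 and 0.107 between QJSB and model, all over the limit of 0.1. The main values of that comparison nonetheless come from a fit without pairs. A block for the replicate number was run as an alternative only. In the other comparisons at least 1 correlation was lower, though QJSB and leucogen came close, with 0.181, 0.134 and 0.0782. The labels give no pairing, and the paper states that mice were allocated at random. Libraries of different numbers were not compared in this way, so a pairing of mice was not shown. The tests were tried on simulated counts. For QJSB against model (14486 genes), edgeR recovered 85 of 100 genes changed 4-fold and 23 of 100 changed 2-fold, and made 11 false calls. The changed genes were drawn at random from all genes tested, each with its own spread. These rates therefore need not hold for the 9 genes, whose coefficients of variation in model had a median of 60.8%. The 9 genes, the lists and the 21 other genes named from them were chosen with earlier results of these data known. Genes named beyond those were named after their values were seen, as the text says, or are the 10 with the closest profile. One gene chosen with them is not reported here. Neither blood counts nor metabolites were analysed here.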

Additional observations from a re-analysis of the deposited data

How the results depend on the processing

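The limits are the number of mice, the mouse-to-mouse spread and the uncertain counts of Gp1bb. Of 702 alternative values of the 9 genes, 619 kept their direction and their side of the threshold, 17 passed it, 6 lost it and 60 changed sign. No value that changed sign was called in either fit. DESeq2 called 1 gene between leucogen and model (Pf4), 1 between QJSB and normal (Gp9), 2 between leucogen and normal (Gp9 and Pf4) and 2 between QJSB and leucogen (Pf4 and Vwf). All 12 libraries in 1 fit left 0 calls in QJSB and in leucogen against normal. Leaving out 1 library gave 0 to 2 calls between model and normal, 0 between QJSB and model, 0 to 1 between leucogen and model, 0 to 2 between QJSB and normal, 1 between leucogen and normal and 0 to 5 between QJSB and leucogen. The 1 call between leucogen and model came without model 2 (Gp1bb). Shares of all genes called in these reduced fits are not given beside the counts.

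A block for the replicate number left 0 of the members called between QJSB and model, as in the main fit without it. Over all genes the block gave 18 calls there, against 0. In the other comparisons, the block gave 1 call between model and normal (Gp1bb, 1.01), 1 between leucogen and model (Pf4), 0 between QJSB and normal, 1 between leucogen and normal and 0 between QJSB and leucogen. Signs changed under the block for Gp1ba (0.038), Gp5 (0.14) and Gp9 (0.19) between QJSB and model, for Pf4 (0.057) between QJSB and normal and for Ppbp (0.0060) between QJSB and leucogen. They changed with total counts for Ppbp between model and normal (0.10) and Pf4 between QJSB and normal (0.0072). With DESeq2, DESeq2 size factors and all 12 libraries in 1 fit, Gp5 between QJSB and model was at 0.0097, 0.0053 and 0.0062. With FPKM, Gp5 (0.065) and Gp9 (0.12) between QJSB and model, Pf4 (0.068) between QJSB and normal, and Ppbp (0.095) and Gp6 (0.071) between QJSB and leucogen changed sign. The cause was not tested.

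Leaving out 1 library in turn, Gp1bb kept its sign but ranged from 0.28 to 1.72 between model and normal and from -1.61 to -0.17 between leucogen and model. Leaving out 1 library in turn gave these ranges of the log2 fold change where the sign changed. Between model and normal they were Pf4 -0.37 to 0.50, Ppbp -0.63 to 0.29, Vwf -0.30 to 0.76, Itga2b -0.45 to 0.55, Gp1ba -0.18 to 1.19, Gp5 -0.0013 to 0.95, Gp6 -1.08 to 0.071. Between QJSB and model they were Pf4 -0.34 to 0.35, Ppbp -0.85 to 0.066, Vwf -0.13 to 0.75, Itga2b -0.055 to 0.74, Gp1ba -0.53 to 0.59, Gp1bb -1.07 to 0.36, Gp5 -0.34 to 0.51, Gp9 -0.38 to 0.83, Gp6 -0.57 to 0.37. Between leucogen and model they were Ppbp -0.95 to 0.21, Itga2b -0.76 to 0.22, Gp1ba -1.45 to 0.11, Gp9 -0.71 to 0.49, Gp6 -0.70 to 0.52. Against normal they were Pf4 -0.21 to 0.37 in QJSB and Vwf -1.13 to 0.020, Itga2b -0.70 to 0.24, Gp1ba -0.88 to 0.52, Gp1bb -0.33 to 0.47, Gp5 -0.88 to 0.094 in leucogen. Between QJSB and leucogen they were Ppbp -0.41 to 0.42, Gp6 -0.38 to 0.40.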
